A study of Mus musculus with 8 samples.

Results

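Of 7 cystatin genes set as members by name (Cst3, Cst6, Cst8, Cst9, Cst11, Cst12 and Cst13), 6 had a probe set carrying their symbol or an alias on the array, among 19411 genes with a probe set of their own. Cst8 (alias Cres) had none under that rule and was not analysed here. Each of the 6 was represented by a single probe set. RNA had been hybridised to Affymetrix gene arrays, with 1 array per sample and 8 C57/Bl6 mouse samples in all. Sperm were collected from the caudal epididymis of males on a low protein diet (2 arrays), a caloric restriction diet (1 array) or a control diet (3 arrays), and epididymal tissue was taken from males on the low protein diet (1 array) and on the control diet (1 array). Control and low protein males had been kept on their diet to an age of 9 to 12 weeks, and no age is stated for caloric restriction, so age and diet cannot be told apart there. The labels give no genetic modification for any group, do not say whether animals were pooled, and do not name the region of the epididymis used for the tissue arrays. Per the labels, microscopy set a purity of over 99.5% for the sperm, and samples with detectable Actb or Myh11 by PCR had been rejected.

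Cystatins are small secreted or intracellular inhibitors that block papain-like cysteine proteases such as the cathepsins. Cst3 encodes cystatin C, which most cell types secrete and which is abundant in the fluid of the male tract. Cst8, Cst9 (testatin), Cst11 (alias CRES2), Cst12 (alias CRES3) and Cst13 (alias Cymg1) belong to a reproductive branch of the family, known from the testis and the proximal epididymis, whose proteins lack parts of the protease-binding sites of cystatin C. Cst6 encodes cystatin E/M, an inhibitor of legumain and cathepsins known from the skin.

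By gene order in the RefSeq annotation of assembly GRCm38, 6 of the 7 genes lie in a cluster of 9 on chromosome 2, in the order Cstl1, Cst11, Cstdc1, Cst12, Cst8, Cst13, Cst9, Cstdc2, Cst3, and Cst6 lies on chromosome 19. The promoters of Cst3 and Cst13 are shown because these were the members whose signals separated sperm from epididymis without overlap, in opposite directions. RefSeq promoter windows (GRCm38.p6; 250 bases before to 50 after the gene start) were matched for 4 of the 6 measured members (Cst3, Cst9, Cst12 and Cst13). Capitals mark CG dinucleotides.
Cst3, chr2:148875463-148875762, minus strand: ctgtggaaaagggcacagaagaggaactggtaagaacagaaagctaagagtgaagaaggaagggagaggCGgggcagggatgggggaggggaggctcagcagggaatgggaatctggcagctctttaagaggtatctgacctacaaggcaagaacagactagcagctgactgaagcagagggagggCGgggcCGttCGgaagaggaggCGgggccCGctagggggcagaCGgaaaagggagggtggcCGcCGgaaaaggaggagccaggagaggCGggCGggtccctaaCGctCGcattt
Cst13, chr2:148819849-148820148, plus strand: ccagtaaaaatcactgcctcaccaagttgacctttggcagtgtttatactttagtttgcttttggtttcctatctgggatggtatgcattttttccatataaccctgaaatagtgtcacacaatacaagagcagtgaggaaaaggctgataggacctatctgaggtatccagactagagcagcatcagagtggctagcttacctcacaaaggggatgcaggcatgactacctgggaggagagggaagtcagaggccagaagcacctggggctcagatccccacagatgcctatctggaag
The Cst3 window held 13 CG dinucleotides and 60.3% G or C, against a median of 7 and 52.7% over 32851 windows of the same length. The Cst13 window held 0 CG dinucleotides, as few as in 5.43% of windows. Cst9 and Cst12 had 3 each. The letters GGGCGG on either strand occurred 2 times in the Cst3 window and 0 times in those of Cst9, Cst12 and Cst13, and 35.7% of all windows held them. TATAAA on either strand occurred 1 time in the Cst13 window and was held by 13.6% of all windows. Such matches describe the letters only.

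The label of an epididymal cystatin set fitted Cst3 and was not borne out for the other measured members on these arrays. The mean signal of Cst3 over the 8 arrays, 10.5 on the log2 scale, was brighter than that of 99.6% of genes. Cst11, at 5.85, stood just above the level of 5.69 under which the dimmest 30% of genes were left out of testing. Cst6 (5.08), Cst13 (5.02), Cst12 (3.77) and Cst9 (3.64) fell below it, and of these Cst6 was the closest to it. Cst9 and Cst12 were among the dimmest genes (percentiles 3.09 and 3.78 of the mean). Brightness depends on the probes as well as on the transcript, so it does not rank the genes by RNA level, and no detection call was used to tell a dim signal from background. Cst3 and Cst11 were therefore the 2 members tested among 13587 genes, and the other 4 are given as levels, with a fit that kept all 19411 genes.

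Cst3 gave a bright signal in sperm, well below its epididymal level. Its log2 signal was 9.82 and 9.60 in low protein sperm, 9.98 in caloric restriction sperm and 10.09, 10.37 and 10.37 in control sperm, against 12.02 in low protein and 12.12 in control epididymis. Every sperm array was below both epididymis arrays. In intensity, sperm arrays held 18.1% to 30.7% of the mean epididymis signal, or 24.9% ± 5.12 (SD, n = 6). In the fit with diet as a term, Cst3 fell by 2.06 ± 0.17 on the log2 scale in sperm (SE; 5 sperm and 2 epididymis arrays set this effect, since caloric restriction was fitted as a separate diet with no epididymis array), with an adjusted p by limma of 6.37e-05. That was 1 of the 2 members tested; 48.5% of all genes tested passed, 30.1% lower and 18.4% higher in sperm, so passing was common. After cyclic loess the calls were 3497 higher and 3388 lower, against 2501 higher and 4093 lower as deposited, the median of all genes tested moved to 0.05 from -0.08, and Cst3 was -1.56. In bulk samples fewer cells of a type and less RNA per cell cannot be told apart.

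Cst13, a germ cell cystatin, ran the other way. Its log2 signal was 5.60 and 5.87 in low protein sperm, 5.50 in caloric restriction sperm and 4.83, 4.87 and 5.24 in control sperm, against 4.01 in low protein and 4.24 in control epididymis. All 6 sperm arrays exceeded both epididymis arrays. The intensity in sperm was 236% ± 66.9 of that in epididymis (SD, n = 6). With no filter on dim genes the log2 difference was 1.20 ± 0.23, with an adjusted p by limma of 0.00314, and it was 0.73 with an adjusted p of 0.0881 without the low protein epididymis array. Cst13 was thus called only when dim genes were kept. The alternatives combined with no filter gave an adjusted p of 0.000349 to 0.0881 for it.

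**Figure D1:**
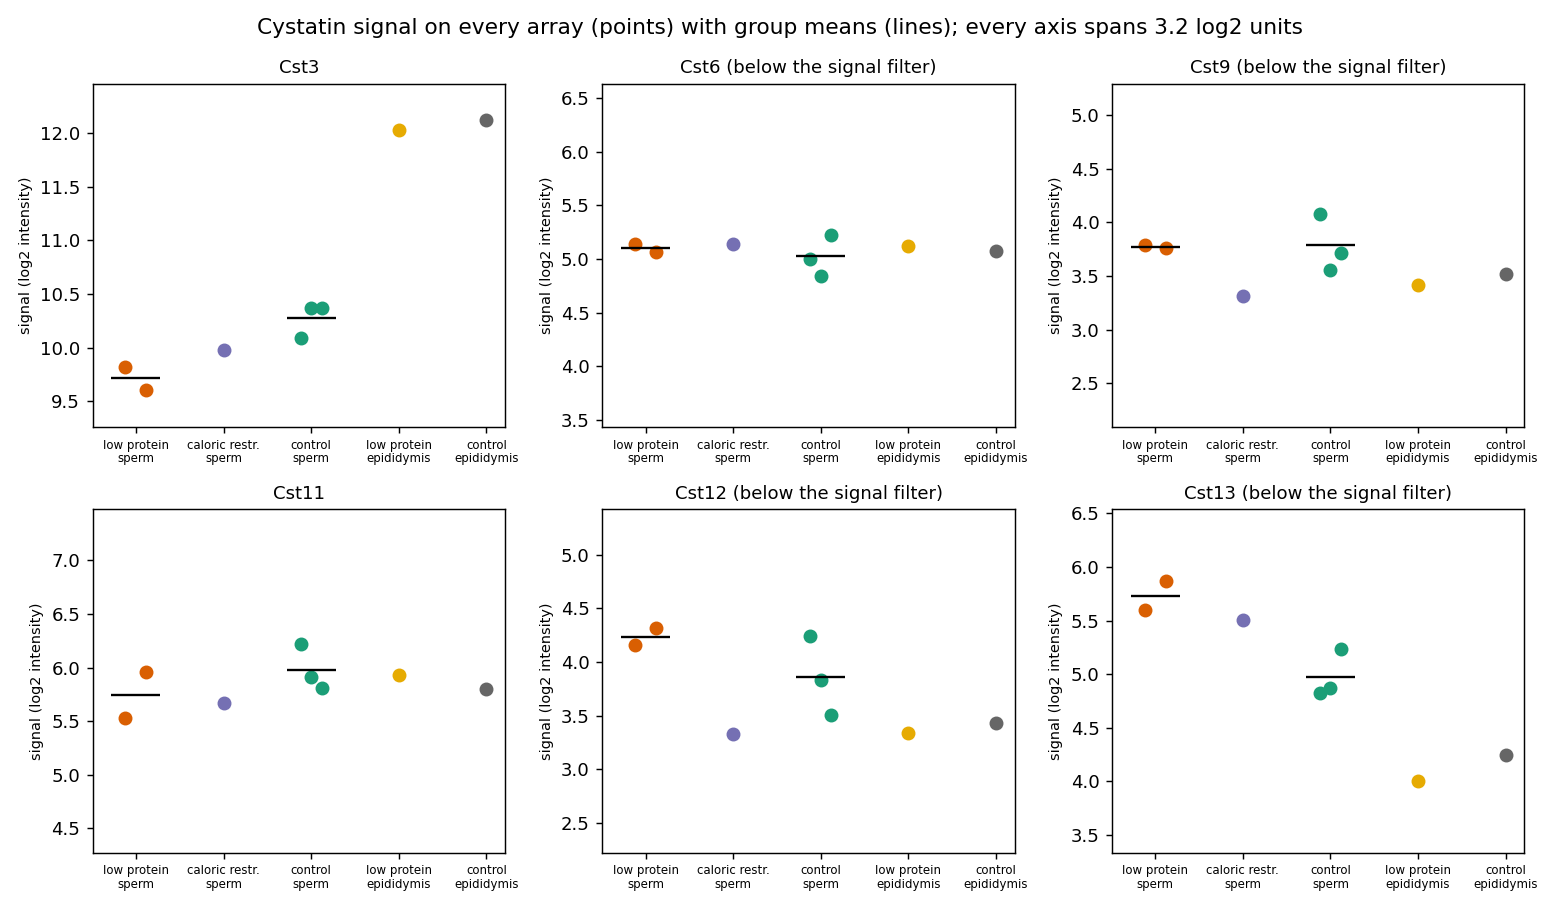
Signal (log2 intensity) of the 6 measured cystatins on each array, by sample group; points are arrays and lines are means of groups with more than 1 array. Cst3 lies between 9.60 and 10.37 in sperm against 12.02 and 12.12 in epididymis, Cst13 lies between 4.83 and 5.87 in sperm against 4.01 and 4.24 in epididymis, and the other 4 genes overlap between the tissues.

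Of the remaining reproductive cystatins, Cst12 separated the tissues in part, and Cst9 and Cst11 did not pass. Cst12 read 4.16 and 4.32 in low protein sperm, 3.33 in caloric restriction sperm and 4.24, 3.83 and 3.51 in control sperm, against 3.34 in low protein and 3.43 in control epididymis. The caloric restriction array was the lowest of all 8, and the other 5 sperm arrays lay above both epididymis arrays. With no filter Cst12 differed by 0.65 ± 0.21 between sperm and epididymis, with an adjusted p by limma of 0.0369, in the same kind of fit, which caloric restriction does not enter. Leaving out control sperm replicate 1 or 2, low protein sperm replicate 1, or either epididymis array ended that call (adjusted p of 0.0542 to 0.376).

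Cst9, known as a gene of the fetal testis, read 3.79 and 3.76 in low protein sperm, 3.31 in caloric restriction sperm and 4.08, 3.56 and 3.72 in control sperm, against 3.42 and 3.52 in low protein and control epididymis. The ranges overlapped, through the caloric restriction array alone, and the difference with no filter was 0.31 ± 0.17 (adjusted p by limma 0.187). Cst11, of the proximal epididymis, read 5.53 and 5.96 in low protein sperm, 5.67 in caloric restriction sperm and 6.22, 5.91 and 5.81 in control sperm, against 5.93 in low protein and 5.80 in control epididymis. Both epididymis values sat within the sperm range, and the fitted difference was 0.0075 ± 0.19 (adjusted p by limma 0.976; it changed sign under 6 alternatives). Cst6, the skin cystatin, read 5.14 and 5.07 in low protein sperm, 5.14 in caloric restriction sperm and 5.0, 4.84 and 5.23 in control sperm, against 5.13 in low protein and 5.07 in control epididymis. Its difference with no filter was -0.037 ± 0.16 (adjusted p by limma 0.866).

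With no filter, 3 of the 6 members passed between sperm and epididymis, 2 higher (Cst12 and Cst13) and 1 lower (Cst3), when 37.8% of all 19411 genes passed, 15.2% higher and 22.7% lower. The members' groups did not overlap for 2 of 6 genes, against 51% of all genes, 22.9% higher and 28% lower in sperm. Neither share set the cystatins apart from other genes. With no filter the median sperm to epididymis difference over all genes was 0.05, against -0.08 over the genes tested. Dim genes thus leaned higher in sperm than the tested ones. The part of this shift in the Cst12 and Cst13 differences was not tested.

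Most genes listed here for the proximal epididymis, where Cst8, Cst11 and Cst12 are known to be made, were dim on the epididymis arrays themselves. Of 13 such genes, chosen for their known site of expression, 4 (Adam7, Gpx5, Rnase9 and Spag11a) read above 5.69 on both epididymis arrays and 9 did not. Lcn8, a lipocalin of the initial segment, read 5.21 in low protein and 4.73 in control epididymis, and Lcn9 read 4.96 and 5.01 there. Lcn12, a lipocalin listed here among the wider epithelial markers only, read 11.0 in low protein and 10.8 in control epididymis. The count of dim genes thus depends on which genes were listed, and does not settle the region of the tissue. Adam7, a membrane protein of the sperm surface, read 12.7 in low protein and 12.5 in control epididymis. Gpx5, a secreted peroxidase, read 6.84 and 7.25, Rnase9 6.30 and 6.85, and Spag11a 6.21 and 6.18 in those samples. Of the distal and general epithelial markers, Cd52 read 13.4 in low protein and 13.5 in control epididymis, and Clu 12.1 on both. The mean over the 13 proximal genes was 5.80 in low protein and 5.89 in control epididymis, against 5.34 to 5.83 over the 6 sperm arrays. Their part in the low Cst11 and Cst12 signals was not tested.

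Low protein sperm had lower Cst3 and higher Cst13 signal than control sperm on both arrays, without either gene passing the test. Cst3 averaged 9.71 ± 0.16 (SD, n = 2) in low protein sperm and 10.28 ± 0.16 (SD, n = 3) in control sperm, with no overlap. As a share of the epididymis signal this was 19.5% ± 2.10 against 28.9% ± 3.06. The log2 difference was -0.56 ± 0.17 (SE) with an adjusted p by limma of 0.138. Without low protein replicate 1 it was -0.67 with an adjusted p by limma of 0.0161, but there 5155 of 13587 genes (37.9%) passed, against 0 with all arrays, and the lone remaining array is assumed to vary like the control group. Without low protein replicate 2, which stood apart from the other sperm arrays, it was -0.45 with an adjusted p of 0.380, and after cyclic loess it was -0.11 with an adjusted p of 0.751.

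Cst13 averaged 5.73 ± 0.19 (SD, n = 2) in low protein sperm and 4.98 ± 0.23 (SD, n = 3) in control sperm, again with no overlap. With no filter the difference was 0.76 ± 0.20 (SE), with an adjusted p by limma of 0.109, and without low protein replicate 2 it was 0.62 with an adjusted p of 0.269. Without low protein replicate 1 it was 0.89 with an adjusted p of 0.00734, where 6038 of 19411 genes (31.1%) passed, against 0 with all arrays. Limma called 0 of 13587 genes in this comparison (0%), and 0 of 2 members, of which 1 had an unadjusted p under 0.05. With no filter it called 0 of 6 members, of which 2 did. The groups did not overlap for 2 of 6 members, against 35.9% of all genes (18.6% higher and 17.2% lower). The other 4 members differed by between -0.24 (Cst11) and 0.38 (Cst12), and their groups overlapped.

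The caloric restriction array lay on the low protein side of control for Cst3 and Cst13. It was outside the control range for 5 of 6 members, below it for 4 and above it for 1, and for 69% of all genes. Cst3 read 9.98, below the lowest control sperm array, with a log2 difference of -0.30 ± 0.22 (SE; 1 caloric restriction and 3 control arrays, adjusted p by limma 0.516). After cyclic loess it was -0.09. Cst13 read 5.50, above the highest control sperm array, and differed by 0.53 ± 0.25 with no filter (adjusted p by limma 0.403). Cst9 and Cst12 were lower on this array than on any other, at 3.31 and 3.33, and differed from control sperm by -0.48 ± 0.25 and -0.53 ± 0.29 (adjusted p by limma 0.460 and 0.471 with no filter). Cst11 differed by -0.31 ± 0.26 (adjusted p by limma 0.558) and Cst6 by 0.12 ± 0.23 with no filter (adjusted p by limma 0.857). Limma called 756 of 13587 genes (5.56%) and 0 of the 2 members tested, with 0 at an unadjusted p under 0.05; with no filter it called 4.64% of genes and 0 of 6 members, with 0 at an unadjusted p under 0.05. Having 1 array, the caloric restriction group added nothing to the estimate of spread.

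With both restricted diets against control sperm, Cst3 differed by -0.48 ± 0.17 (SE; 3 restricted and 3 control arrays, adjusted p by limma 0.130; -0.11 after cyclic loess) and Cst13 by 0.68 ± 0.18 with no filter (adjusted p by limma 0.0859). All 3 restricted arrays lay below the control range for Cst3 and above it for Cst13, 2 of 6 members against 27% of all genes without overlap (13.3% higher and 13.7% lower). Limma called 373 of 13587 genes (2.75%) and 0 of the 2 members tested, with 1 at an unadjusted p under 0.05; with no filter it called 1.94% of genes and 0 of 6 members, with 2 at an unadjusted p under 0.05. The 3 diet comparisons share the control arrays and are not independent of each other. Cst11 differed by -0.26 ± 0.18, and Cst6, Cst9 and Cst12 by 0.09, -0.17 and 0.07 with no filter.

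**Figure D2:**
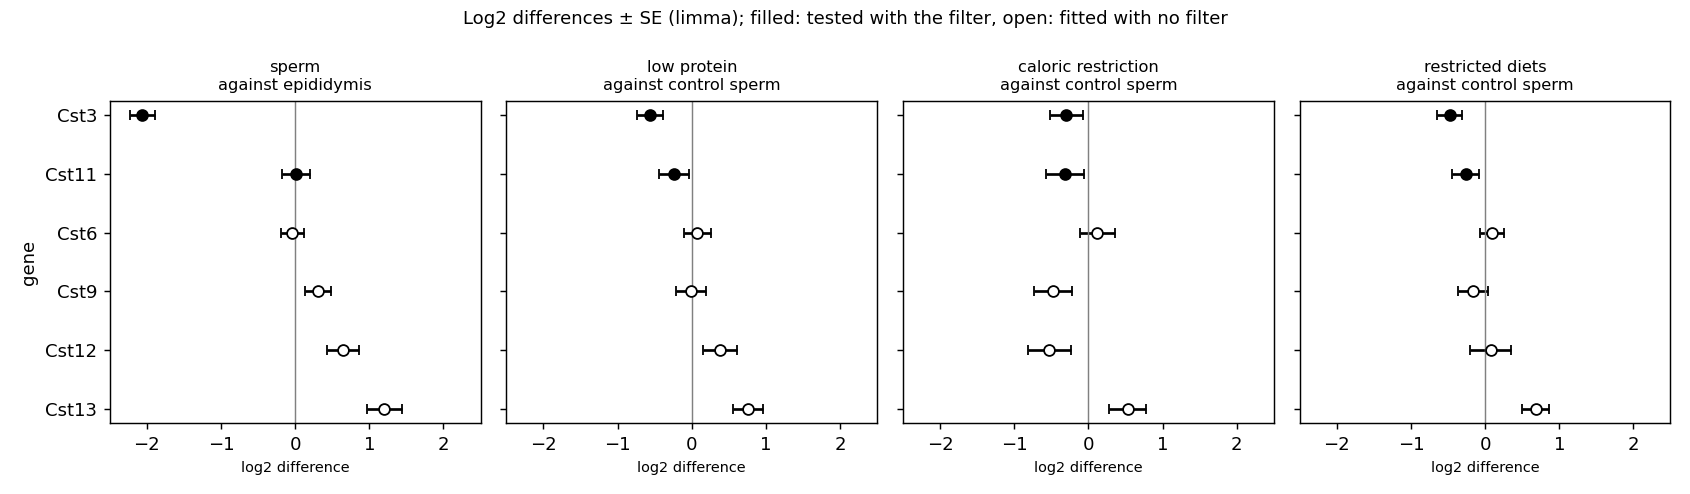
Log2 differences (x axis) with standard errors from limma for each cystatin (rows) in 4 comparisons; filled points were tested with the filter on dim genes and open points come from the fit with no filter. Cst3 at -2.06 and Cst13 at 1.20 lie farthest from 0 between sperm and epididymis, and under the restricted diets Cst3 differs by -0.48 and Cst13 by 0.68.

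Low protein and caloric restriction sperm differed by -0.26 ± 0.23 for Cst3 (SE; 2 low protein and 1 caloric restriction arrays, adjusted p by limma 0.779) and by 0.07 ± 0.27 for Cst11 (adjusted p by limma 0.951). Among the dim genes Cst12 had the largest difference, 0.91 ± 0.31 with no filter (adjusted p by limma 0.360), with 4.16 and 4.32 in low protein sperm against 3.33 in caloric restriction sperm. Limma called 0 of 13587 genes (0%) and 0 of 2 members, with 0 at an unadjusted p under 0.05; with no filter it called 0 of 6, with 1 at an unadjusted p under 0.05.

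In the epididymis, low protein and control arrays differed little for the cystatins, with 1 array each and no test. Cst3 was 12.02 in low protein and 12.12 in control epididymis, a log2 difference of -0.09. Cst13 differed by -0.24, Cst9 by -0.10, Cst12 by -0.09, Cst6 by 0.05 and Cst11 by 0.14. The SD of this difference over all 19411 genes was 0.21, 0 of 6 members differed by at least 1, and 0.124% of all genes did. The low protein difference in sperm minus that in epididymis was -0.47 ± 0.32 for Cst3 and -0.38 ± 0.38 for Cst11 (SE, adjusted p by limma 0.875 and 0.877). It was 0.99 ± 0.37 for Cst13 with no filter (adjusted p by limma 0.971). Limma called 0 of 13587 genes (0%) and 0 of 2 members for it, with 0 at an unadjusted p under 0.05; with no filter it called 0 of 6, with 1 at an unadjusted p under 0.05.

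Some marker lists separated restricted from control sperm arrays as Cst3 or Cst13 did. The epithelium and smooth muscle lists did so in the direction of Cst3, and the late germ cell list in that of Cst13. The ranges of the fibroblast, macrophage and Sertoli cell lists overlapped between restricted and control sperm. For 14 tested epididymal epithelium markers the median signal as a share of the epididymis was 39.9% and 23.1% in low protein sperm, 33.4% in caloric restriction sperm and 43.5%, 51.1% and 49.2% in control sperm. For the 8 smooth muscle markers it was 9.06% and 7.03%, then 9.50%, then 13.3%, 14.4% and 11.3% in the same groups. For both lists the control arrays lay above the others, as they did for Cst3 at 21.0% and 18.1% in low protein sperm, 23.4% in caloric restriction sperm and 25.4%, 30.7% and 30.7% in control sperm.

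The 7 fibroblast and matrix markers tested read 28.1% and 22.9% in low protein sperm, 30.3% in caloric restriction sperm and 29.6%, 31.9% and 52.4% in control sperm. The 10 macrophage markers, of a cell type that secretes cystatin C, read 84.0% and 98.9%, then 86.6%, then 78.1%, 69.5% and 85.0% in those groups, and their control and restricted ranges overlapped. The 10 late germ cell markers read 1520% and 2027% in low protein sperm, 1912% in caloric restriction sperm and 1094%, 943% and 931% in control sperm, so the restricted arrays lay above the control arrays, as for Cst13. The 4 tested markers of Sertoli cells, the testis cells in which Cst9 is known, read 117% and 158% in low protein sperm, 111% in caloric restriction sperm and 146%, 114% and 123% in control sperm. No listed marker had a log2 value of 0, but no detection call was used, so a dim value need not lie above background. The part of these cell types in the Cst3 and Cst13 values was not tested.

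**Figure D3:**
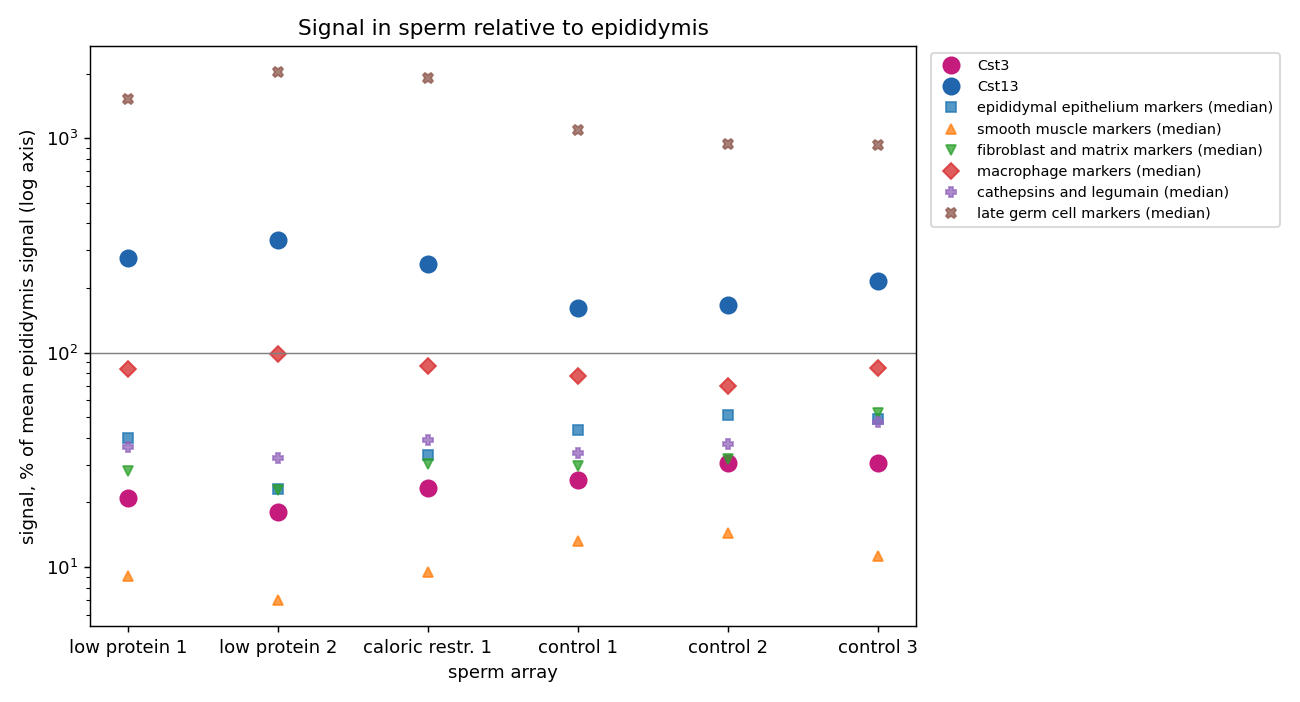
Signal of Cst3 and Cst13 and the median signal of the tested genes of marker lists on each sperm array (x axis), as a percent of the mean of the 2 epididymis arrays (log axis). Cst3 runs from 18.1% to 30.7%, between the smooth muscle list (7.03% to 14.4%) and the epithelium list (23.1% to 51.1%), and Cst13 from 162% to 333%, below the late germ cell list.

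Among relatives of the members, the neighbouring cluster gene Cstl1 read higher in sperm. Its signal was 6.65 and 7.27 in low protein sperm, 6.25 in caloric restriction sperm and 6.07, 6.20 and 5.74 in control sperm, against 4.48 in low protein and 5.02 in control epididymis. All sperm arrays were above both epididymis arrays. Cstl1 passed the filter at 5.69 through its sperm signal, and both epididymis arrays lay below that level, so the values are a description with no test. Fetub, encoding fetuin-B, a liver-type member of the superfamily, fell by 1.47 ± 0.19 in sperm (adjusted p by limma 0.000526), and Cstb, the intracellular cystatin B, fell by 0.55 ± 0.16 (adjusted p by limma 0.0194). Of 15 other cystatin superfamily genes with a probe set, 3 were tested and 12 were below the filter.

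The proteases that cystatins inhibit were lower in sperm. All 10 tested genes of the cathepsin and legumain list fell, when 30.1% of all genes tested did. Their median difference was -1.49 against -0.08 for all genes tested, and 1 more, Ctsw, was below the filter. Of the 10, Ctsk passed the filter through its epididymis signal, 7.23 in control and 6.54 in low protein epididymis. Its mean over the sperm arrays, 5.55, lay below the filter level. The filter thus favoured a fall of Ctsk, which is a description only, though it is counted in the 10 and in their median. Ctsl, a lysosomal endopeptidase, read 7.33 and 7.15 in low protein sperm, 7.26 in caloric restriction sperm and 7.47, 7.96 and 8.21 in control sperm, against 9.81 in low protein and 9.80 in control epididymis, and fell by 2.23 ± 0.23 (adjusted p by limma 0.000167). Ctsb, another lysosomal cathepsin, fell by 1.82 ± 0.20 (adjusted p by limma 0.000203). Ctsc, which activates granule proteases, fell by 1.71 ± 0.21, and Ctso fell by 1.61 ± 0.24 (adjusted p by limma 0.000359 and 0.000944). Legumain (Lgmn), a target of cystatin E/M, fell by 1.59 ± 0.18 (adjusted p by limma 0.000289). None of the 10 passed in low protein, caloric restriction or both diets together against control sperm, where their median differences were -0.15, -0.17 and -0.19 against -0.06, -0.11 and -0.07 for all genes tested. Of 5 tested proprotein convertases, a family of which Pcsk2 is known to be inhibited by the Cst8 protein, Pcsk4, the sperm form, rose by 1.00 ± 0.18 in sperm (adjusted p by limma 0.00223), and the other 4 did not pass; 18.4% of all genes tested rose.

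The genes whose pattern over the 8 arrays was most like that of Cst3, by Pearson's correlation among tested genes, were Atp5c1, Ctnna1 and Pigt (all 1.00 to 2 decimals). For Cst13 they were 4930513N10Rik, F10 and Ehd1 (0.99 each), for Cst12 A330041J22Rik, Msx1 and Tbc1d10c (0.99, 0.99 and 0.98), and for Cst11 Ppp1r26, Hid1 and Klhl29 (0.97, 0.96 and 0.92). For Cst9 they were 1810010K12Rik, Atxn1l and Abcg4 (0.93, 0.93 and 0.92) and for Cst6 Zdhhc6, 2810002D19Rik and Gm8096 (0.90, 0.87 and 0.86). Over the 6 sperm arrays alone the most alike were Ebpl, Mturn and Abcc1 for Cst3 and Marchf2, Atp9a and Rnf111 for Cst13, so no gene was shared with the 8-array lists of these 2 members. Over the same 6 arrays they were Osr2, Sohlh1 and Hid1 for Cst11, A330041J22Rik, Mrps18a and Ofcc1 for Cst12, Cyb561d2, Gm9899 and Mrc2 for Cst9, and Brpf3, Zdhhc6 and Ino80 for Cst6. With 13587 candidates and few arrays such likeness is a description only.

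The medians of the 8 arrays over all genes lay between 6.29 and 6.37 on the log2 scale. Low protein sperm replicate 2 lay apart from the other sperm arrays, with correlations of 0.71 to 0.86 over tested genes. Without it the sperm to epididymis difference of Cst3 was -1.99 and the low protein differences were -0.45 for Cst3 and 0.62 for Cst13 (Cst13 with no filter). Actb, one of the transcripts of the PCR screen, read 11.04 and 10.49 in low protein sperm, 11.28 in caloric restriction sperm and 11.43, 11.61 and 11.47 in control sperm, against 12.50 in low protein and 12.67 in control epididymis. Myh11, the other one, read 7.09 to 8.13 in sperm against 11.77 in low protein and 11.79 in control epididymis.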

How the data were processed

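The authors deposited log2 intensities for every probe set on each array; the submitters' processing notes name RMA and no version, and neither annotation nor genome build is stated. RMA as usually run corrects background and normalizes the arrays to each other. By the platform annotation 21222 of 33660 probe sets carried 1 gene, 1541 several and 10897 stay unnamed here; 21137 were given their current symbol by gene identifier (RefSeq, GRCm38). The probe set of highest mean over 8 arrays stood for a gene (19411 genes), and the lowest 30% by mean (log2 5.69 and below) were left out, leaving 13587.

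Tests used limma 3.58.1 in R 4.3.3 (lmFit and eBayes, two-sided, Benjamini-Hochberg over all genes tested, threshold 0.05), checked on simulated arrays. Errors of differences are moderated SEs. Diets were compared over the 6 sperm arrays; sperm and epididymis over 8 arrays with diet as a term. The epididymis diet pair had no test. Every measured member is named in sperm against epididymis, in caloric restriction and both restricted diets against control sperm, and in the epididymis pair. In the other comparisons only some members are named. List genes are named by the largest changes past the threshold, with others added after their values were seen. Members and lists were chosen with earlier results of these data known. Separate animals per replicate are not stated, so the p-values cover the spread among these samples alone, possibly technical. The number of arrays limits the precision. Alternatives were other normalizations, filters, variance models, the mean of probe sets and each array left out.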

Additional observations from a re-analysis of the deposited data

How the results depend on the processing

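The fall of Cst3 in sperm against epididymis kept its direction and its side of the threshold under all alternatives tried, with differences from -2.31 to -1.56. The count of members called there was 1, and 3 with no filter; without any 1 array it was 1 in each case. In low protein against control sperm the count was 0, and 1 (Cst3) without low protein replicate 1, with a range of 0 to 1 over the arrays left out; 5155 of 13587 genes (37.9%) were called at the same time, against 0 with all arrays. The Cst11 difference between sperm and epididymis, 0.0075, was -0.050 after median centring, -0.073 after quantile normalization, -0.054 after cyclic loess, and -0.063, -0.051 and -0.19 without control sperm replicate 1, low protein sperm replicate 2 and control epididymis, with a range of -0.19 to 0.18 over the arrays left out. Between low protein and caloric restriction sperm, Cst11 was -0.079 after cyclic loess and -0.14 without low protein replicate 2 (range -0.14 to 0.29 over the arrays left out). With no filter, the Cst12 difference under the restricted diets was -0.037, -0.12 and -0.10 without low protein replicate 1, low protein replicate 2 and control replicate 3. The cause of these turns was not tested. The fits of Cst12 and Cst13 with no filter combined with other settings were chosen after seeing the data. Comparisons with caloric restriction could not be fitted without its array, nor the low protein effect compared between sperm and epididymis without either epididymis array. No paired analysis was possible because the labels give the arrays letters that no groups share.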
